A study of Mus musculus with 3 samples.

Results

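The 9 genes described here are the core of the Hedgehog pathway: the ligand gene Shh, the receptor Ptch1, the signal transducer Smo, the co-receptors Boc and Cdon, the transcription factors Gli1, Gli2 and Gli3, and the Gli inhibitor Sufu. They were chosen by name, and each name was found once among the 55573 genes listed. The values come from UMI-RNAseq of NIH3T3, an established mouse fibroblast line, grown in medium with 10% fetal bovine serum. The 3 libraries (library 1, library 2 and library 3) share this 1 condition. The labels and methods name no Hedgehog ligand, agonist or inhibitor, so the values describe the pathway without a ligand added to the medium. Separate cultures are not stated for them, and the SD over libraries may be technical.

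In Hedgehog signalling, a secreted ligand binds Patched at the cell surface and at the primary cilium. Patched then stops restraining Smoothened, and Smoothened signals to the Gli factors, which are otherwise held by Sufu and, in the case of Gli3 and part of Gli2, cut into repressors. Gli1 and Ptch1 are themselves induced when the pathway is active and are widely used as its readout, and NIH3T3 cells are a common host for such assays.

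The library totals behind the values, as inferred from the values themselves, were 13959723 to 14423209 fragments. Per library, 12919 to 12951 genes reached 1 FPKM (fragments per kilobase of gene length and 1000000 fragments). The label was checked against marker lists. Of 12 fibroblast genes, 11 reached 1 FPKM in every library, from S100a4 upwards to Fn1 at 4377 ± 86.1 FPKM (SD, n = 3), and Lum was listed at 0. The extraction text of the labels mentions retina, but 0 of 12 retina genes reached 1 FPKM in every library, Nrl was listed at 0, and the summed level of the retina list was 1.07 to 1.73 FPKM per library against 9406 to 9518 for the fibroblast list. Of 10 epithelial, endothelial and blood markers, Cdh5 and Cd68 were the 2 that reached 1 FPKM in every library, at 1.35 ± 0.290 and 2.12 ± 0.544 FPKM (SD, n = 3). In a bulk sample, a level that is low because few cells transcribe a gene cannot be told apart from one that is low in every cell.

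Because the Gli genes are related in sequence, their transcripts were first compared for stretches that could carry a fragment from one gene to another. The 3 sequences below are shown because those of Gli2 and Gli3 hold the longest exact run common to these genes, which is 25 nt. The Gli1 window does not hold this run, and is its coding stretch with the most bases identical to the Gli2 window. Capitals mark the bases that are identical in all 3 genes, and each window is 60 bases of coding exon where the first of the DNA-binding zinc fingers ends and the second begins. The positions are on GRCm38: chr10:127336041-127336100 on the minus strand for Gli1, chr1:118845995-118846054 on the minus strand for Gli2, and chr13:15713511-15713570 on the plus strand for Gli3.
Gli1: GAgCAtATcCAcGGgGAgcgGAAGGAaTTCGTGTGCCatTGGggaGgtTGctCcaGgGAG
Gli2: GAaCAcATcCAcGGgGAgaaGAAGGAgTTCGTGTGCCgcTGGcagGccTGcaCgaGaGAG
Gli3: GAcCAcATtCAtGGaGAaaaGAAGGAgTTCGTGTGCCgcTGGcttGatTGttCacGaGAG
Of these 60 bases, 39 were identical in all 3 genes, 47 between Gli2 and Gli3 and 45 between Gli1 and Gli2. The window begins at base 784 of the 3333 coding bases of Gli1, at base 1321 of 4632 in Gli2 and at base 1510 of 4749 in Gli3, so Gli1 has the shortest coding stretch ahead of it. The longest exact run was 23 nt between Gli1 and Gli2, and 14 nt between Gli1 and Gli3. At a word length of 75 nt, the transcripts of Gli2, Ptch1, Boc, Cdon and Sufu shared no word with any other annotated gene. Gli1 shared 3.73% of its words, with the antisense gene Gm47200, Gli3 shared 1.05%, with the opposite-strand transcript Gm6556, and Smo shared 0.757%, with Gm4066. None of the words that a Gli gene shared was with another Gli gene. Shh shared 21.1%, with 298 of the 585 shared words in 9530036O11Rik on the opposite strand, a gene without fragments here.

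Of the 9 Hedgehog genes, 7 had an FPKM of at least 1 in every library (Smo, Sufu, Gli2, Gli3, Ptch1, Cdon and Boc), and Gli1 and Shh did not. The same limit was passed by 22.2% of all genes listed and by 48.5% of the 21980 protein-coding genes. At a limit of 0.1 FPKM, 8 of the 9 genes passed, with Shh left out, against 56% of the protein-coding genes. The median of the mean levels over the 9 genes was 11.8 FPKM, against 0.804 FPKM over the protein-coding genes and 17.5 FPKM over the 12905 genes with a mean of at least 1 FPKM. Among those 12905 genes, the 7 that passed ranged from the percentile 29.6 for Boc to 67.5 for Smo, and Gli1 and Shh are not in that set.

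**Figure D1:**
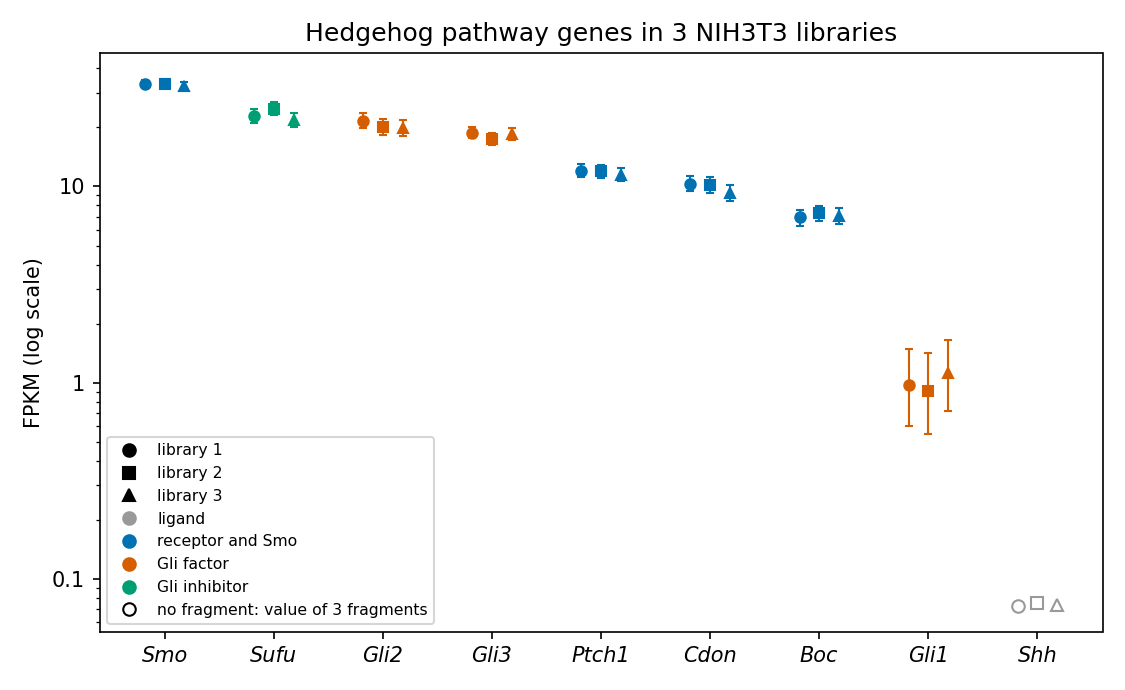
FPKM of each gene (log scale) in libraries 1 to 3, with exact 95% counting intervals as bars and colours for the role of the gene. Smo sits highest at 33.0 FPKM on average, Gli1 lies near 1 FPKM with the widest intervals, and Shh, with no fragment, is drawn as open symbols at the value of 3 fragments.

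Shh (ENSMUSG00000002633), the ligand gene (GRCm38; chromosome 5, 28456815 to 28467256, minus strand), had 0 fragments in each of the 3 libraries. The exact upper 95% limits of this count of 0 were 0.0898, 0.0928 and 0.0906 FPKM in libraries 1 to 3, and they cover counting error only. A floor of 3 fragments per library corresponded to 0.0731, 0.0755 and 0.0737 FPKM. Its exons overlap those of 9530036O11Rik over 446 nt and of Gm26894 over 361 nt on the opposite strand, and both of these genes were listed at 0 as well. Against the floor, Smo lay 439.3-fold higher in library 3, where the difference was smallest. Between the exact lower limit of Smo and the exact upper limit of Shh, the fold in library 3 was 339.1. Gli1 is itself low, and its exact lower 95% limit was 5.87 times the exact upper limit of Shh in the library where the limits were closest.

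The other ligand genes were under 1 FPKM in every library. Ihh, Indian hedgehog, had 1, 0 and 1 fragments in libraries 1, 2 and 3. Dhh, Desert hedgehog, had 12, 8 and 3 fragments, or 0.337, 0.232 and 0.0850 FPKM. The level of Dhh was 0.218 ± 0.127 FPKM (SD, n = 3). It was lowest in library 3, at the floor of 3 fragments, and above the floor in libraries 1 and 2.

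Among the receptors and Smo, Smo (ENSMUSG00000001761; chromosome 6, 29735503 to 29761365, plus strand) had 33.3 FPKM in library 1, 33.4 in library 2 and 32.4 in library 3. Smo is the membrane protein that passes the signal inward. It was the highest of the 9 genes in each library and rested on 1454 to 1508 fragments per library. Ptch1 (ENSMUSG00000021466; chromosome 13, 63508328 to 63573598, minus strand), the ligand receptor that restrains Smo, had 12.1, 11.9 and 11.5 FPKM. Its 635 to 672 fragments per library set it well above the floor without an added ligand. Smo exceeded Ptch1 2.79-fold ± 0.0287 (SD, n = 3), a log2 ratio of 1.48 ± 0.01. Counting error alone gives an SD of 0.068 for this log2 ratio, so the observed SD understates its uncertainty. The size of this fold rested on the gene length, and was 6.24 with the longest isoform, 5.73 with all exon bases and 2.10 with protein-coding isoforms.

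The co-receptors Cdon and Boc are membrane proteins with immunoglobulin and fibronectin repeats that bind the ligand together with Ptch1. Cdon (ENSMUSG00000038119; chromosome 9, 35421128 to 35507652, plus strand) had 10.3, 10.2 and 9.26 FPKM in libraries 1, 2 and 3. Boc (ENSMUSG00000022687; chromosome 16, 44485049 to 44558897, minus strand) had 6.95, 7.29 and 7.08 FPKM. The values of the 2 genes did not overlap, and Boc lay at 0.717 ± 0.0466 (SD, n = 3) of Cdon. In fragments, before division by gene length, they were alike, with 1350 for Boc and 1318 for Cdon over all libraries. The third co-receptor, Gas1, a membrane-anchored protein, had 58.5, 50.9 and 50.1 FPKM, with the highest value in library 1, and lay above Smo in every library.

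Of the Gli factors, Gli2 (ENSMUSG00000048402; chromosome 1, 118834132 to 119053619, minus strand), the main activator downstream of Smo, had 21.6, 20.2 and 19.8 FPKM. Gli3 (ENSMUSG00000021318; chromosome 13, 15463235 to 15730026, plus strand), the main source of Gli repressor, had 18.8, 17.5 and 18.5 FPKM. Gli1 (ENSMUSG00000025407; chromosome 10, 127329882 to 127341974, minus strand), an activator that is itself a target of the pathway, had 0.967, 0.904 and 1.11 FPKM. Gli1 was thus far below both of the others in every library. Of the summed FPKM of the 3 factors, Gli2 made up 51.6% ± 1.22, Gli3 45.9% ± 0.942 and Gli1 2.50% ± 0.280 (SD, n = 3). Which of Gli2 and Gli3 had the larger share depended on the gene length behind the FPKM. With the longest isoform as the length, Gli2 made up 37.9% ± 1.14, Gli3 59.2% ± 0.833 and Gli1 2.89% ± 0.303.

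The level of Gli1 rested on 21, 19 and 24 fragments. The exact Clopper-Pearson 95% intervals were 0.599 to 1.48 FPKM in library 1, 0.544 to 1.41 in library 2 and 0.714 to 1.66 in library 3, and they cover counting error only. They overlapped each other and the limit of 1 FPKM. With the deposited length, whether Gli1 passes that limit was thus not detectable at this depth. With other lengths Gli1 was lower, at 0.820 FPKM with protein-coding isoforms, 0.369 with the longest isoform and 0.300 with all exon bases. Gli1 exons overlap the neighbouring gene Arhgap9 over 62 nt and Gm47200 over 265 nt, both on the opposite strand, and whether counting made use of strand is not stated. Arhgap9 was measured at 15 to 16 FPKM and Gm47200 was listed at 0. For Gli3, the overlap was 188 nt with Gm6556, which was at 1.518, 0.753 and 0.796 FPKM in libraries 1 to 3. How many of the Gli1 or Gli3 fragments lie in these stretches was not tested.

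Sufu (ENSMUSG00000025231; chromosome 19, 46396896 to 46488804, plus strand), the cytoplasmic protein that binds and holds Gli factors, had 22.9, 24.9 and 21.8 FPKM, with the highest value in library 2. It exceeded Gli1 23.6-fold ± 4.002 (SD, n = 3).

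The question of the comparison between roles was how the receptors and Gli factors stand against the target genes without a ligand added. The 6 genes that receive or pass on the signal and are not counted as targets (Smo, Sufu, Gli2, Gli3, Cdon and Boc) ranged from 7.11 to 33.0 FPKM with a median of 19.4. The 2 members that are targets did not lie together. Ptch1, at 11.8 ± 0.302 FPKM (SD, n = 3), was within that range, and Gli1, at 0.995 ± 0.108, was below it in every library. The place of Ptch1 depended on the gene length. With all exon bases as the length, Ptch1 was at 3.22 and lay below the 6 genes, which ranged from 4.002 for Cdon to 18.5 for Smo, and Gli1 was at 0.300. With the longest isoform Ptch1, at 4.40, was just above Cdon, the lowest of the 6 at 4.12. Ptch1 exceeded Gli1 11.99-fold ± 1.505 (SD, n = 3), with 12.5, 13.2 and 10.3 as the single values of libraries 1 to 3. Gli2 exceeded Gli1 22.4-fold in library 1, 22.3-fold in library 2 and 17.8-fold in library 3. Gli3 exceeded Gli1 18.5-fold ± 1.59 and Smo exceeded it 33.5-fold ± 4.04 (SD, n = 3). With the longest isoform as the length, Smo exceeded Gli1 74.97-fold and Gli2 exceeded it 13.3-fold, and with all exon bases Smo exceeded it 62.1-fold. The folds of Gli3, Sufu and Ptch1 over Gli1 moved by less than 1.5 times with the 3 other lengths. In 6 of the 8 ratios tested the direction was the same in all 3 libraries and also with each gene length tried. For Gli2 over Gli3 and Boc over Cdon it was the same in all libraries but not with each length. In each of the 8 ratios, the SD of the log2 values was below the SD from counting error alone. For Smo over Gli1 it was 0.179 against 0.316. The ratios share genes, Gli1 most often, so they are not separate observations, and an SD from 3 values is itself imprecise. With the signs flipped over the 3 libraries, the exact two-sided permutation p was 0.25 for each of the 8 ratios, and 0.25 after Benjamini-Hochberg adjustment over them. No smaller p can come from 3 libraries, and no ratio could pass 0.05.

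**Figure D2:**
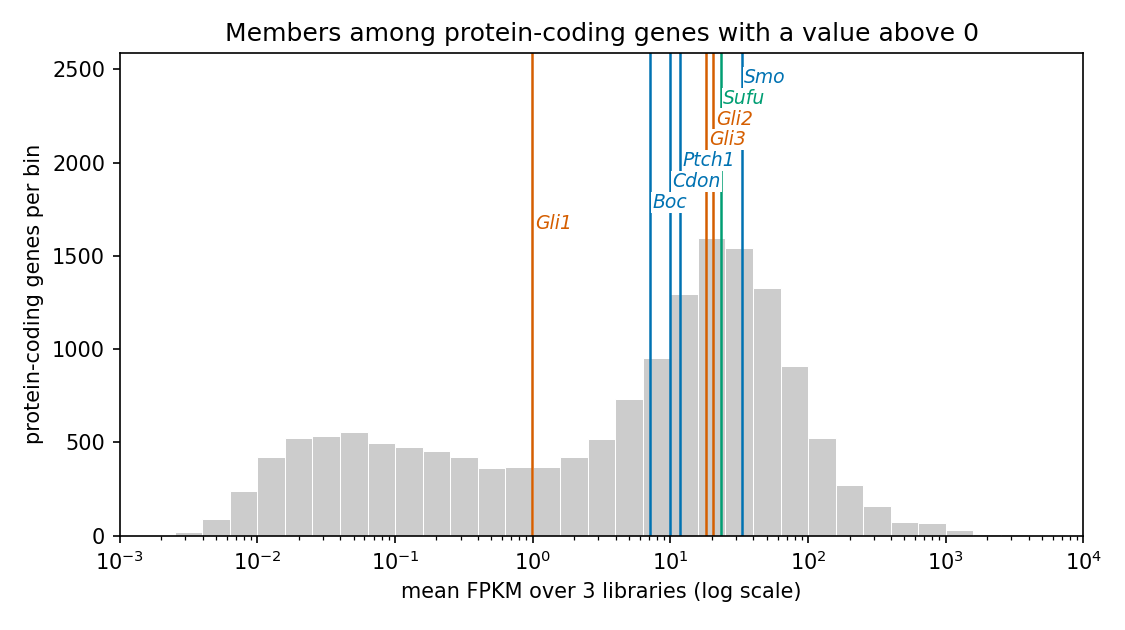
Number of protein-coding genes per bin of mean FPKM over 3 libraries (grey bars, log axis; genes at 0 left out), with a vertical line at the mean of each Hedgehog gene. The lines from Boc at 7.11 to Smo at 33.0 FPKM fall in the upper peak of the distribution, and Gli1 at 0.995 falls in the trough between the peaks.

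Ordered by mean FPKM, the genes were Smo, Sufu, Gli2, Gli3, Ptch1, Cdon, Boc, Gli1 and Shh. The order was the same in each library. The smallest steps were Gli2 over Gli3, with a log2 ratio of 0.17 ± 0.06, and Sufu over Gli2, with 0.17 ± 0.12 (SD, n = 3). The lowest Sufu value, 21.8 FPKM in library 3, was close to the highest Gli2 value, 21.6 FPKM in library 1. The widest step was Boc over Gli1, with a log2 ratio of 2.84 ± 0.17. No 2 neighbours overlapped in their ranges over libraries.

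The order of the genes in the middle depended on the gene length used. For each of the 9 genes the deposited values correspond to whole numbers of fragments divided by the mean length of the annotated isoforms. Gli2 has 9 annotated isoforms with a mean length of 1567 nt, but the longest measures 6637 nt, 4.24 times the mean. Gli3 has 4 isoforms with a mean of 3389 nt and a longest of 8170 nt. Boc has 1 isoform of 4451 nt, so its value does not change, while Cdon has 6, with a mean of 3109 nt and a longest of 7503 nt. In fragments, Gli3 exceeded Gli2 in each library, with 917, 829 and 899 against 489, 442 and 444. With the longest isoform as the length, Gli3 had 7.58 ± 0.274 and Gli2 4.85 ± 0.227 FPKM on that length (SD, n = 3), and the log2 ratio of Gli2 over Gli3 became -0.64 ± 0.06 against 0.17 as deposited. With the same length, Boc lay above Cdon, at 7.11 ± 0.173 and 4.12 ± 0.242, and the log2 ratio became 0.79 ± 0.09 against -0.48. Other pairs turned as well. Gli3 lay above Sufu with protein-coding isoforms, at 17.5 against 15.9, and with all exon bases, at 6.46 against 5.59. With all exon bases Cdon lay above Ptch1, and Boc was second of the 8 genes with fragments, above Gli3 and Sufu. Data on which isoforms were present were not used here, and these orders are not settled by the values. The mean lengths of Gli1 and Ptch1 are shorter than their longest isoforms by nearly the same factor, 2.70 and 2.69. Smo stayed the highest of the 9 genes, and Gli1 the lowest of the 8 with fragments, with each of the 4 lengths.

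**Figure D3:**
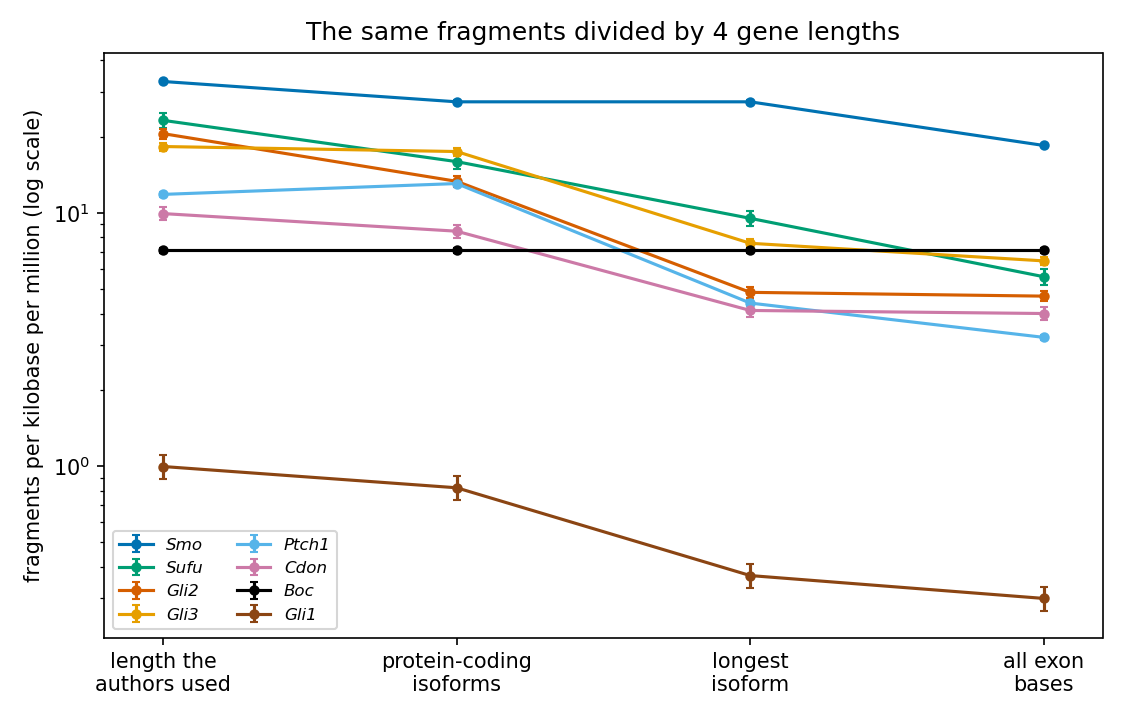
The fragments of each gene divided by 4 choices of gene length (mean over 3 libraries, bars show the SD, log axis). Gli2 falls from 20.5 to 4.85 between the deposited length and the longest isoform and crosses Gli3, Boc stays at 7.11 and crosses Cdon, Ptch1 and Gli2 with the longest isoform and also Gli3 and Sufu with all exon bases, and Gli1 stays lowest throughout.

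Other genes of the pathway were taken from lists by role, 64 genes in all, of which 48 reached 1 FPKM in every library. The median of their mean levels was 19.5 FPKM. For this count and those by role, the share to set beside them is 48.5% of all protein-coding genes, whose median was 0.804 FPKM. Of the 17 regulators of Smo and of ciliary transport, 17 reached it, with a median of 25.01 FPKM. They ranged from Kif7, the kinesin that organises the tip of the cilium, at 5.86 ± 0.530 FPKM to Mgrn1, a ubiquitin ligase that acts on Smo, at 72.03 ± 1.05 (SD, n = 3). Gpr161, a ciliary receptor that keeps the pathway off through cAMP, was at 11.7 ± 0.387 FPKM and Tulp3, which brings such receptors into the cilium, at 48.8 ± 0.937. Of the 19 kinases and turnover factors of the Gli proteins, 19 reached 1 FPKM, with a median of 64.4 FPKM. Stk36 was lowest at 3.59 ± 0.242 FPKM and Prkar1a, the regulatory subunit of protein kinase A, was highest at 229 ± 1.57. Spop, the adaptor that marks Gli2 and Gli3 for degradation, was at 134.4 ± 2.09 FPKM.

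The surface and ligand lists held most of the genes that were low. Of 7 further surface binding genes, 1 reached 1 FPKM, namely Gas1 at 53.2 ± 4.62 (SD, n = 3), against 48.5% of protein-coding genes. Gpc4, a glypican, was listed at 0. Of 8 ligand genes and genes for ligand release, 3 reached the limit, Disp1, which exports the ligand from the producing cell, at 8.55 ± 0.317 FPKM, its relative Disp2 at 8.47 ± 0.120 and Hhat, which acylates the ligand, at 5.45 ± 0.341. Scube1, of a family of secreted release factors, was listed at 0.

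Among 17 genes often described as Hedgehog targets, the members Gli1 and Ptch1 included, 9 reached 1 FPKM in every library. Over all protein-coding genes 48.5% did, so this count is near the background share. Hhip, a ligand-binding inhibitor, that is induced with Gli1 and Ptch1 in many tissues, had 0, 0 and 1 fragments in libraries 1, 2 and 3 and was under the floor of 3 fragments in each. The highest was Ccnd1, cyclin D1, at 178.1 ± 2.52 FPKM (SD, n = 3), which many growth signals also raise. Foxf2 and Foxf1, forkhead factors of mesenchyme, were at 18.8 ± 0.278 and 6.64 ± 0.326 FPKM. Foxa2 and Nkx2-2, which mark the ventral neural tube, were listed at 0 along with Sfrp1.

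**Figure D4:**
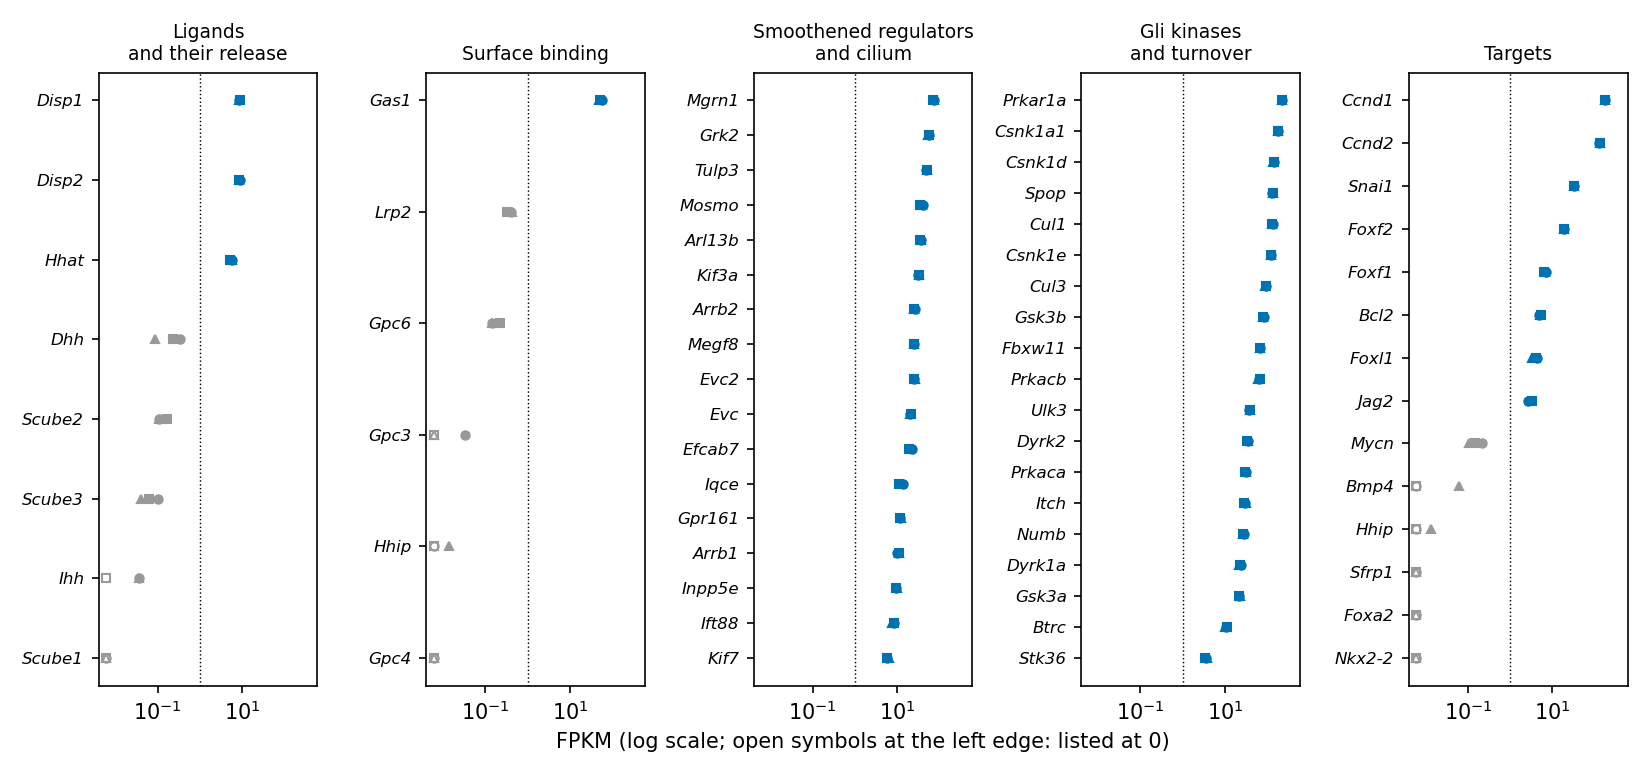
FPKM (log axis) of 63 other pathway genes in 3 libraries, by role, with a dotted line at 1 FPKM, grey symbols under it and open symbols at the left edge for values listed at 0. Hhip appears in 2 panels, and the panels of Smo regulators and Gli kinases lie wholly to the right of the line.

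The promoter of Ptch1 is shown because Ptch1 is the target gene among the members whose promoter was in the table used, taken from RefSeq on GRCm38.p6. The 250 bases before the start site lie at chr13:63565736-63565985 on the minus strand, within the span of the annotated gene, and capitals mark each CG dinucleotide.
Ptch1: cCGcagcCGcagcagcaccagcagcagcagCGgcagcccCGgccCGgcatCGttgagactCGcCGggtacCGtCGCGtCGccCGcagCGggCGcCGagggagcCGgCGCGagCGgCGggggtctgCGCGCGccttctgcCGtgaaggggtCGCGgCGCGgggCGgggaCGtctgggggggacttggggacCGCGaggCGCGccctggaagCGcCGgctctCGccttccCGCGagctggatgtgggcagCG
These 250 bases hold 41 CG dinucleotides, and the window of 300 bases from 250 before to 50 after the start holds 47, against a median of 7 over all 32851 windows. The Gli consensus TGGGTGGTC, or GACCACCCA on the other strand, was searched in the windows of the 6 members found there (Ptch1, Smo, Cdon, Gli2, Gli3 and Sufu). It occurred in 0 of the 6 and in 83 of the 32851 windows (0.253%). At so low a rate, 6 windows cannot tell whether these genes lack Gli sites, and sites elsewhere were not searched. The 250 bases of Cdon and Gli3 also lie within the span of their annotated genes. Shh, Boc and Gli1 were not matched.

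Between libraries, the spread of the 8 genes with fragments was set beside the spread that counting error alone gives. The coefficient of variation (CV) was 1.75% for Smo, 2.55% for Ptch1, 2.43% for Boc and 5.89% for Cdon. It was 10.8% for Gli1, against 21.7% from counting error at its fragment number. The CV divided by that of counting error had a median of 0.837 over the 8 genes and of 0.896 over 12904 genes with a mean of at least 1 FPKM. It was above 1 for 4 of the 8 genes and for 42.6% of those genes. The highest was Sufu, at 1.69, a value exceeded by 10.8% of those genes. For Gas1, outside the 9, it was 3.43, with library 1 above the other two.

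**Figure D5:**
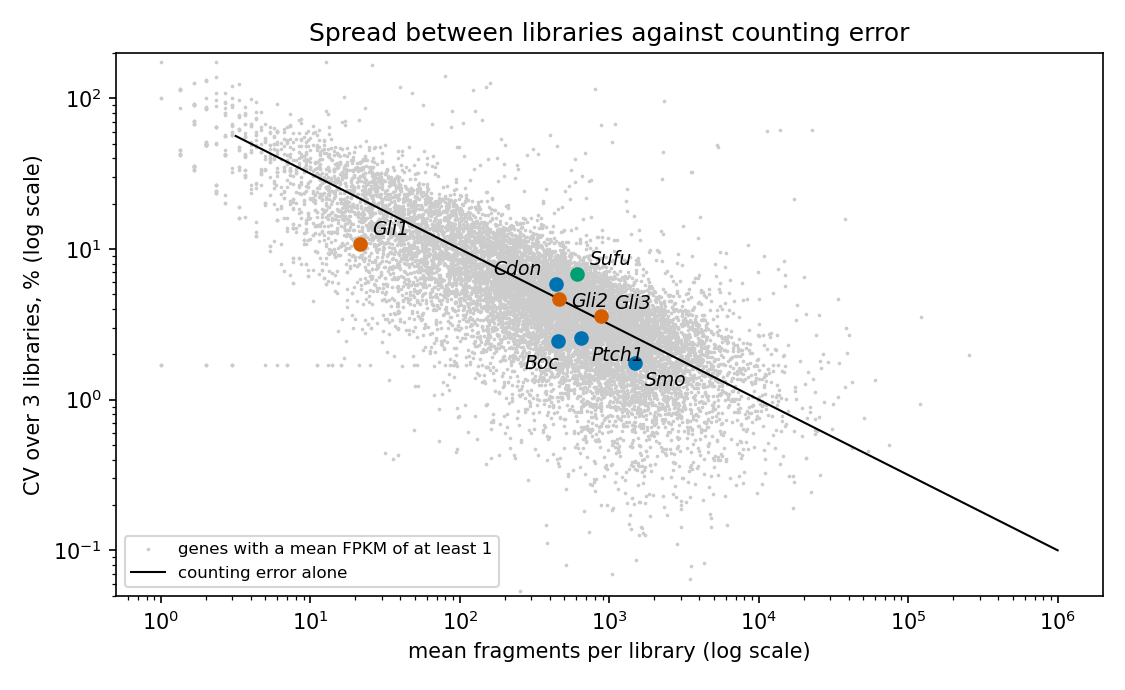
CV over 3 libraries (log axis, %) against mean fragments per library (log axis) for 12904 genes (grey) and 8 Hedgehog genes (coloured by role), with the CV from counting error alone as a line. Sufu, with a CV of 6.85%, lies farthest above the line, and Gli1, with 10.8%, lies below it.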

How the data were processed

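UMI-RNAseq was measured in 3 libraries of NIH3T3 cells of 1 condition. Per the methods and the processing notes, reads with a UMI (a molecular tag) were identified with UMI-tools 1.0.0 and mapped with HISAT2 2.0.4, copies with the same UMI were dropped, and genes were counted with HTSeq 0.6.1. The authors deposited FPKM, 1 column per library, in 2 tables with identical values. The genome build and gene models used by the authors are not given in the sources used here. The notes also list DESeq 1.10.1, whose output was not used here. All columns were used, so 0 were left out.

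Lengths, positions and gene types came from GENCODE M21 (GRCm38), which held 55480 of the gene IDs. Each FPKM was turned back into fragments with the mean isoform length, rounded, and the library total at which most 1-isoform genes with low values rest on 1 fragment. Whole numbers within 0.001 came out in all libraries for 99.2% of 26178 genes with a value. On simulated FPKM of 55480 genes, 3 of 3 totals and 100% of genes were recovered. Ratios were taken within libraries, without a pseudocount or filter. Python 3.11.15, numpy 2.4.6, pandas 2.3.3, scipy 1.17.1 and matplotlib 3.10.9 were used.

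The members, ratios, lists, markers and alternatives were chosen with earlier results of these data known. Named genes are the members, the highest and lowest of each list, overlapping genes, and Ihh, Dhh, Hhip, Gas1, Kif7, Gpr161, Tulp3 and Spop. S100a4, Disp2, Hhat, Foxf1, Foxf2, Nkx2-2, Sfrp1 and Gm4066 were added after their values were seen, as were the lengths from all exon bases and from protein-coding isoforms. No gene is named for a similar pattern, since replicates of 1 condition hold none. Some listed genes that the rule names are counted in their lists but not reported here. Protein sequences were not used here. The alternatives were leaving out each replicate, pseudocounts of 1 and 0.1, other scalings, limits, summaries and gene lengths.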

Additional observations from a re-analysis of the deposited data

How the results depend on the processing

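The 8 log2 ratios were recomputed under 80 alternatives in all, of which 73 kept the direction, and no permutation p below 0.25 was possible. Each ratio had the same direction in all 3 libraries. Leaving out a replicate, adding a pseudocount or taking the median therefore could not reverse it. Only the settings of gene length could, so the count of 73 overstates how firm the directions are. The 7 that reversed all changed the gene length and concerned Gli2 over Gli3 and Boc over Cdon. For Gli2 over Gli3, 0.17 as deposited, the log2 ratio was -0.94 for fragments not divided by length, -0.64 with the longest isoform, -0.46 with all exon bases and -0.39 with protein-coding isoforms. For Boc over Cdon, -0.48 as deposited, it was 0.036 for fragments not divided by length, within the SD of 0.09, 0.79 with the longest isoform and 0.83 with all exon bases. Among the ratios that kept their direction, Smo over Ptch1 went from 2.79-fold to 6.24-fold, and Smo over Gli1 from 33.5-fold to 74.97-fold, with the longest isoform. The settings with all exon bases and with protein-coding isoforms were added after the data were examined. The deposited length of Gli2 and Cdon averages over short isoforms, as do those of Ptch1, Gli1, Gli3 and Sufu. The shortest isoforms of these last genes measure 349, 467, 466 and 334 nt. The fragments themselves do not change between these settings.

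The number of the 9 genes at 1 FPKM stayed at 7 without each replicate in turn, and was 8 at a limit of 0.1 FPKM or above 0. For the other pathway genes it was 48, and 52 or 54 at those limits. Of 81 recomputed levels, 52 moved by no more than the SD, and the other 29 rested on rescaling to 1000000 per library or on another length. Leaving out a replicate or taking the median cannot move a mean of 3 values beyond its SD. Shh at 0 could not move, nor could Boc, with 1 isoform, under another length. Median-of-ratios scaling had factors of only 0.998 to 1.004, so the 52 say little about robustness. Rescaling multiplied each library by 1.43 to 1.46, and took Smo to 47.8 and Gli1 to 1.44. Ranking among all genes listed moved the percentile of 8 genes upwards, by construction. No paired analysis was possible because the libraries share 1 condition. At this depth, Gli1 with 64 fragments in all and Shh with 0 are the levels that counting limits the most.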
